A study of Mus musculus with 18 samples.

Results

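The cytosolic ribosome is built from ribosomal RNA and a fixed set of ribosomal proteins, named Rpl for the large subunit and Rps for the small one. This account describes the mRNAs of these proteins in 6 populations of cells sorted from mouse trachea and lung. Members were the protein-coding genes with a symbol made of Rpl or Rps and a number, with an optional a, l or x ending, plus Rplp0, Rplp1, Rplp2 and Rpsa, after pseudogenes and the Rps6k kinases were set aside. The rule found 85 genes among the 27179 in the count files, and 83 of them passed the filter on low counts (a CPM above 0.2 in at least 3 libraries), among 17989 genes that did. Rpl10l, with 0 reads in all 18 libraries, and Rpl39l, with 19, did not pass. Of the 85, 78 belong to the usual set (47 of the large and 31 of the small subunit, with Rpl32l, a single extra copy of Rpl32, counted among the large ones). The remaining 7 are paralogs, extra gene copies that encode variants of a ribosomal protein: Rpl3l, Rpl7l1, Rpl10l, Rpl22l1, Rpl36al, Rpl39l and Rps27l.

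All cells came from untreated adult male C57BL/6 mice without engineered alleles. Basal stem cells (BSCs) were the NGFR-positive epithelial cells of the trachea and non-basal cells were the NGFR-negative ones, both from mice 1 to 3. From the lungs of mice 4 to 6 came airway CD24hi cells (EpCAM positive, CD104 positive, a gate rich in ciliated cells), airway CD24lo cells (the same gate with low CD24, rich in club cells), alveolar cells (EpCAM positive, CD104 low) and EpCAM-negative cells. Each population has 3 libraries, 1 per mouse, so BSCs and alveolar cells differ in organ and animal as well as in cell type.

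Defining markers followed the labels. Krt5, a basal keratin, lay between 1477 and 1571 RPKM in BSCs and below 0.841 RPKM in alveolar cells. The 4 ciliated markers summed to between 1449 and 1649 RPKM in airway CD24hi cells and to at most 382 RPKM in any other library. The 4 alveolar type 2 markers summed to at least 163928 RPKM in alveolar cells, and Epcam stayed under 1.89 RPKM in EpCAM-negative cells. Tracheal libraries held 29317215 to 32993621 counted reads and lung libraries 9811503 to 13208897, so counting error was larger in lung. Bulk counts give a share of each library's RNA, and fewer cells of a type cannot be told apart from less mRNA per cell.

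Ribosomal protein mRNAs belong to the terminal oligopyrimidine (TOP) class: the transcript starts with a C followed by a run of C and T, through which growth signals from the mTOR kinase, acting with Larp1, set how well the mRNA is translated. The proteins are made in step with each other because each ribosome needs 1 copy of almost every one, and the stalk proteins Rplp1 and Rplp2 are the known exception in copy number. Epithelial stem cells and secretory cells differ widely in how much protein they make.

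The tract at the start is the shared feature of the class, so start sites are shown for some usual members that have it. Some paralogs without it are shown beside them. Only 14 of 58 usual members had the tract at an annotated start, and Rps12, Rps19, Rps16 and Rplp0 did not. The lines are therefore picked examples and no comparison of usual members with paralogs. Each line runs from 30 bases before to 20 bases from the annotated start on the coding strand of RefSeq build GRCm38.p6, and capitals mark a C at the start site and the C and T that follow it without a break.
Rps6 (chr4:86857348-86857397, minus strand): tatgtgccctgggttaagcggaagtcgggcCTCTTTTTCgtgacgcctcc
Rps18 (chr17:33955646-33955695, minus strand): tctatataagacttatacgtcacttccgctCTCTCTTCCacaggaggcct
Rps27 (chr3:90213629-90213678, minus strand): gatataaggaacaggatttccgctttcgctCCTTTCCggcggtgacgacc
Rps15a (chr7:118116128-118116177, minus strand): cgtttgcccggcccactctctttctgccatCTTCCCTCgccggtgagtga
Rpl35 (chr2:39005112-39005161, minus strand): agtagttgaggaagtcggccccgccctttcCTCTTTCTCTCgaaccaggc
Rplp2 (chr7:141447621-141447670, plus strand): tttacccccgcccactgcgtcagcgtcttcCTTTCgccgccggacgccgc
Rps27l (chr9:66946056-66946105, plus strand): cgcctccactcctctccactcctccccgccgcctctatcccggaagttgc
Rpl22l1 (chr3:28805478-28805527, plus strand): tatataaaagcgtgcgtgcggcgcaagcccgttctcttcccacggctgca
Rpl36al (chr12:69184048-69184097, minus strand): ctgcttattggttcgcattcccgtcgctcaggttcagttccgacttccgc
Rpl7l1 (chr17:46782637-46782686, minus strand): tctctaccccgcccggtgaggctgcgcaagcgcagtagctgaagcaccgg

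RefSeq promoters were at hand for 65 members. A C at the annotated start followed by at least 4 C or T was found in 14 of 58 usual members (24.1%), in 0 of 7 paralogs and in 3.01% of all 27025 genes with a promoter. The 14 include Rpl32l, the extra copy of Rpl32 counted here with the usual members, so the 0 depends on that grouping. The letters CCGGAAG, searched on both strands from 250 bases before to 50 bases after the start, occurred in 24 of the 58 (41.4%), in 2 of the 7 paralogs and in 9.93% of all genes. AAGATGGC was found in 8.62% of the 58 against 3.19% of all genes, and TATAAA in 12.1% against 15.7%. A gene can have several annotated starts, any of which counted, and an annotated start can lie some bases from the start used in these cells, so a missing tract says only that the letters are not at that position.

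The 85 genes took between 0.485% and 1.30% of the counted reads of a library. The share was highest in BSCs, at 1.30%, 1.28% and 1.26%, and 0.671% ± 0.0193 (SD, n = 3) in the non-basal cells of the same mice. In lung it was 0.952% ± 0.0283 (SD, n = 3) in alveolar cells, 0.925% ± 0.0290 (SD, n = 3) in airway CD24lo cells, 0.788% ± 0.0179 (SD, n = 3) in EpCAM-negative cells and lowest in airway CD24hi cells. The airway CD24hi libraries stood at 0.652%, 0.498% and 0.485%, so replicate 1 lay apart from the other two. BSC libraries did not overlap with any other population, and airway CD24lo and alveolar libraries overlapped with each other.

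**Figure D1:**
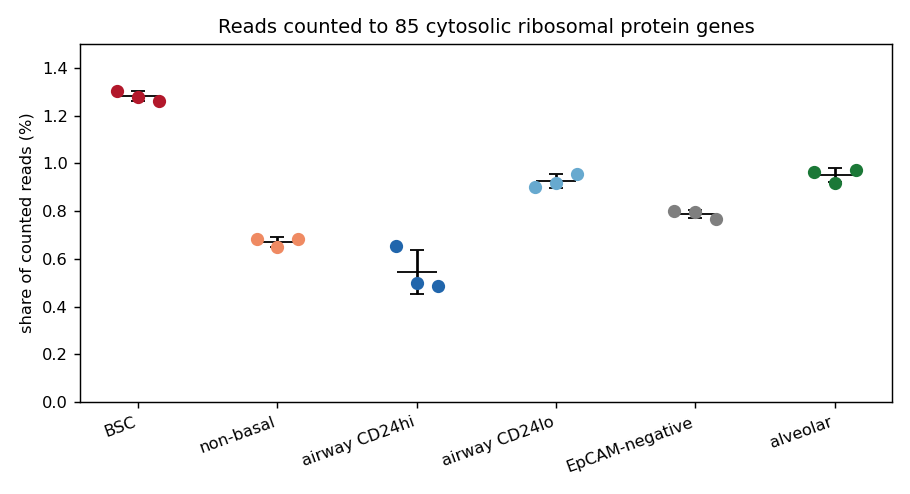
Share of counted reads (vertical axis, percent) taken by the 85 ribosomal protein genes in each of 18 libraries (points), with the mean and SD of the 3 libraries of each population (bar and whiskers). BSC libraries lie between 1.26% and 1.30% and airway CD24hi libraries between 0.485% and 0.652%.

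A share depends on what else a library holds. Scgb1a1, the main club cell secretory protein, took 21.5% to 27.6% of reads in airway CD24lo cells, Bpifa1 took 13.9% to 14.1% in non-basal cells and Sftpc, a surfactant protein, 10.8% to 11.9% in alveolar cells. When the 50 highest other genes were left out of the total, the mean share was 1.56% in BSCs, 1.61% in airway CD24lo cells, 1.48% in alveolar cells, 1.06% in non-basal cells, 0.997% in EpCAM-negative cells and 0.660% in airway CD24hi cells. BSCs no longer led in this count, and airway CD24hi cells still had the lowest mean. All further values use TMM scaling, which trims such dominant genes.

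Levels per length differed widely between members. Rplp1 had the highest mean over the 18 libraries at 1065 RPKM, followed by Rpl41 (713), Rps15 (637), Rpl8 (591) and Rps14 (498), and the median of the 83 tested members was 71.7 RPKM. At the other end were Rpl5 (4.81 RPKM), Rpl31 (4.07), Rpl13 (2.71), Rpl39 (0.288) and the paralog Rpl3l (0.0588). Rpl39 rests on 34 reads and Rpl3l on 27 in all libraries together, so a test result for either is unreliable at this depth.

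These levels follow what could be counted for each gene. Ribosomal protein genes have many near-identical copies in the genome, and a read that matches several genes may be dropped or assigned to another copy. The setting used for such reads is not given in the sources used here. For 84 members, the share of 100-base stretches of the coding transcripts that also occur in another annotated gene ranged from 0% (8 members) to 83.6%, with a median of 24.4%. Rps6 shared 83.6% and Rpl5 82.7% of its stretches, and Rps15 7.74%. The 22 members under 10% had a median of 248 RPKM and the 20 members at 50% or more a median of 33.3 RPKM. Across 82 tested members the shared percentage and the level had a Spearman correlation of -0.42, as a description over genes that share libraries. Against the log2 fold changes of the comparisons below, the same percentage gave correlations between -0.09 and 0.12. Levels are therefore compared here between populations for the same gene, not between members.

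**Figure D2:**
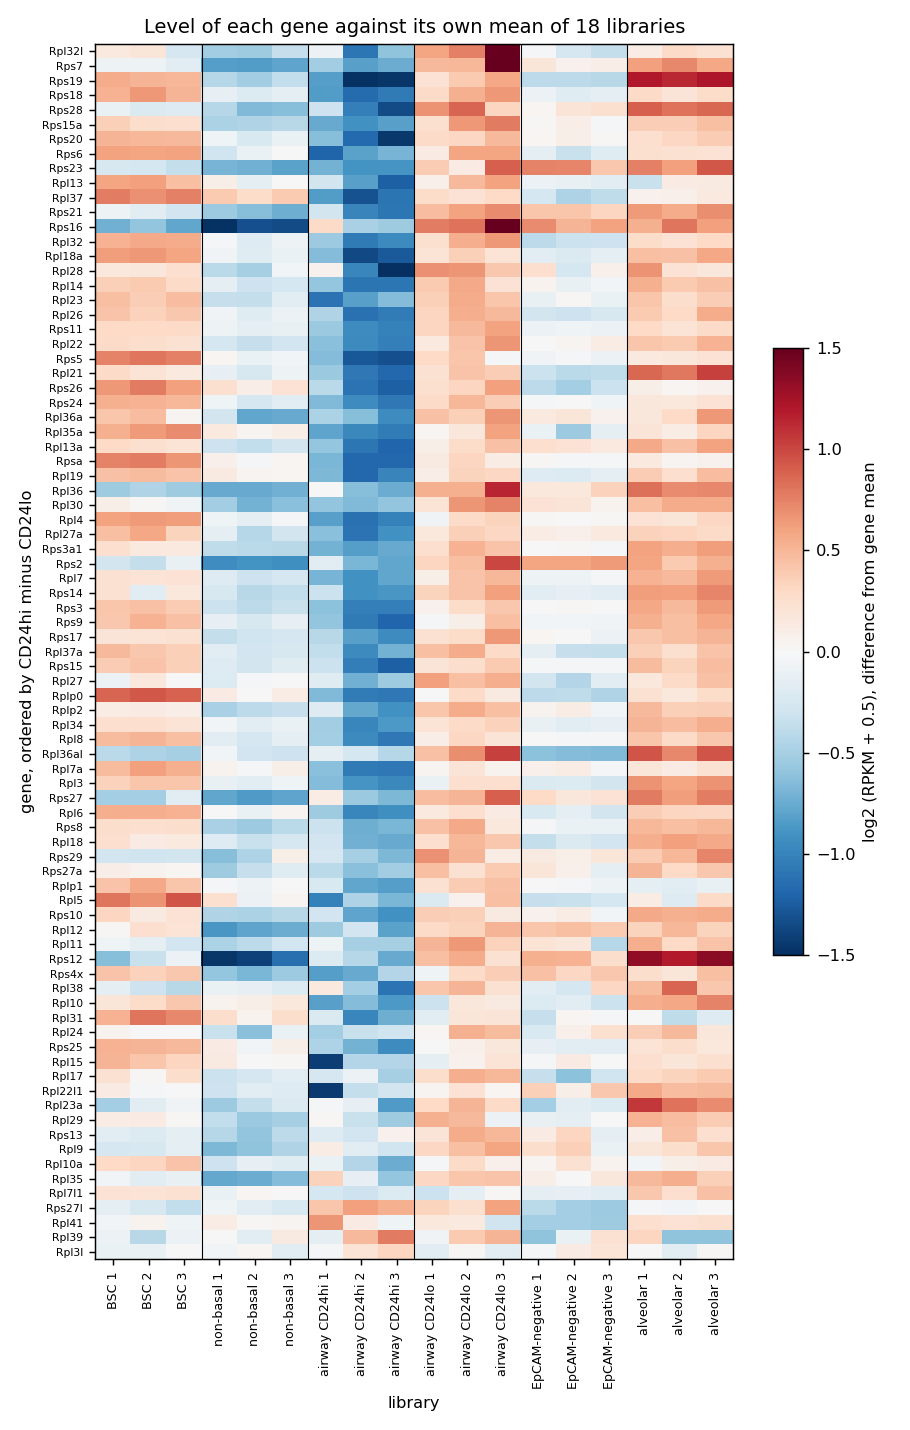
Level of each of the 83 tested members (rows, ordered by the difference between airway CD24hi and CD24lo cells) in each of 18 libraries (columns), as log2 of RPKM plus 0.5 minus the gene's own mean. Most rows are low in airway CD24hi libraries and high in BSC, airway CD24lo and alveolar libraries, while Rpl41, Rps27l and Rpl7l1 near the bottom are not low in airway CD24hi cells.

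The levels of 81 of the 83 tested members differed among the 6 populations (edgeR quasi-likelihood F test, adjusted p under 0.05), against 94.3% of all genes tested. Among the 5 comparisons run, the largest median shift was that between the airway gates of the same lungs, where 78 of 83 members were lower in airway CD24hi than in airway CD24lo cells and 0 were higher, against 27.2% lower and 27.8% higher among all genes. The median log2 fold change of the members was -1.10 and that of all genes -0.06. All 31 small-subunit members and 45 of 47 usual large-subunit members were lower, with medians of -1.17 and -1.06. In 76 of the 83 the airway CD24hi libraries lay wholly below the airway CD24lo libraries, as did 26.0% of all genes tested.

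Rps19, a small-subunit protein whose gene is mutated in Diamond-Blackfan anaemia, was among those that fell furthest. It stood at 66.2, 41.7 and 42.6 RPKM in airway CD24hi cells and at 137, 155 and 176 RPKM in airway CD24lo cells. The libraries did not overlap, and the log2 fold change was -1.63 ± 0.14 (SE; adjusted p = 1.63e-08).

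Rps18, whose start site is shown above, was at 116, 92.7 and 99.7 RPKM in airway CD24hi cells against 254, 301 and 327 RPKM in airway CD24lo cells, a log2 fold change of -1.52 ± 0.10 (SE; adjusted p = 1.05e-09). Rps15a fell by 1.44 on the log2 scale (adjusted p = 4.61e-09). Rps7 was at 11.8, 9.56 and 9.98 RPKM against 24.2, 24.4 and 52.8 RPKM, so airway CD24lo replicate 3 lay far above its 2 fellows, and its log2 fold change was -1.69 ± 0.22 (SE; adjusted p = 3.88e-06). Rps6, the small-subunit protein that S6 kinases phosphorylate, fell by 1.41 on the log2 scale (adjusted p = 3.06e-07), and the stalk proteins Rplp0, Rplp1 and Rplp2 all fell, with a median log2 fold change of -1.06.

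The 5 members that did not pass in this comparison were Rpl39, Rpl3l, Rpl41, Rpl7l1 and Rps27l. Rpl41, the shortest ribosomal protein, was at 1103, 759 and 668 RPKM in airway CD24hi cells and 777, 774 and 568 RPKM in airway CD24lo cells. These ranges overlap, and the log2 fold change was 0.26 ± 0.14 (SE; adjusted p = 0.146).

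Members thus moved by different amounts, which was measured with a fit that scaled every library by its summed member counts. In that fit 10 members were higher and 18 lower in airway CD24hi than in airway CD24lo cells, against 63.5% higher and 6.35% lower among all genes. On this scale 72 of 83 members (86.7%) differed among the 6 populations, beside 96.8% of all genes. The 72 include Rpl3l (edgeR F test, adjusted p = 0.0248), which rests on 27 reads. This scaling takes the members' common shift out of the members and moves it, with opposite sign, onto all other genes. The shares of members and of all genes therefore cannot be set against each other in this fit. The values of this fit are differences from the members' summed level, not changes in expression. On this scale Rps27l was 1.21 (adjusted p = 3.85e-07), Rpl41 1.28 (adjusted p = 1.14e-07) and Rpl7l1 0.96 (adjusted p = 5.36e-07) higher in log2 in airway CD24hi cells, and Rps19 was at -0.59 (adjusted p = 8.52e-06).

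Airway CD24hi replicate 1, with the highest member share of its population, also had the highest sums of alveolar type 2 markers (2400 RPKM against 1225 and 1236), endothelial markers (198 RPKM against 87.7 and 52.7) and fibroblast markers (43.8 RPKM against 24.8 and 15.2). All 4 markers of each list were detected in that population. Without that library the count lower stayed at 78 and the median log2 fold change was -1.26. The populations also differed in other lists: the 4 leukocyte markers, carried almost wholly by Lyz2, summed to between 277 and 392 RPKM in airway CD24hi cells and to between 854 and 1511 RPKM in airway CD24lo cells, and the alveolar type 2 markers to between 1225 and 2400 RPKM against 4813 and 7504 RPKM. Lyz2 was highest in alveolar cells, at 36524 to 44255 RPKM, so the leukocyte sums do not measure leukocytes alone. By the methods the lung sort left out CD45-positive and CD31-positive cells. No marker of these lists was at 0 in every library of either airway population, though Cd3e, a T cell marker, was at 0 in at least 1 airway CD24lo library. Their part in the result was not tested.

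**Figure D3:**
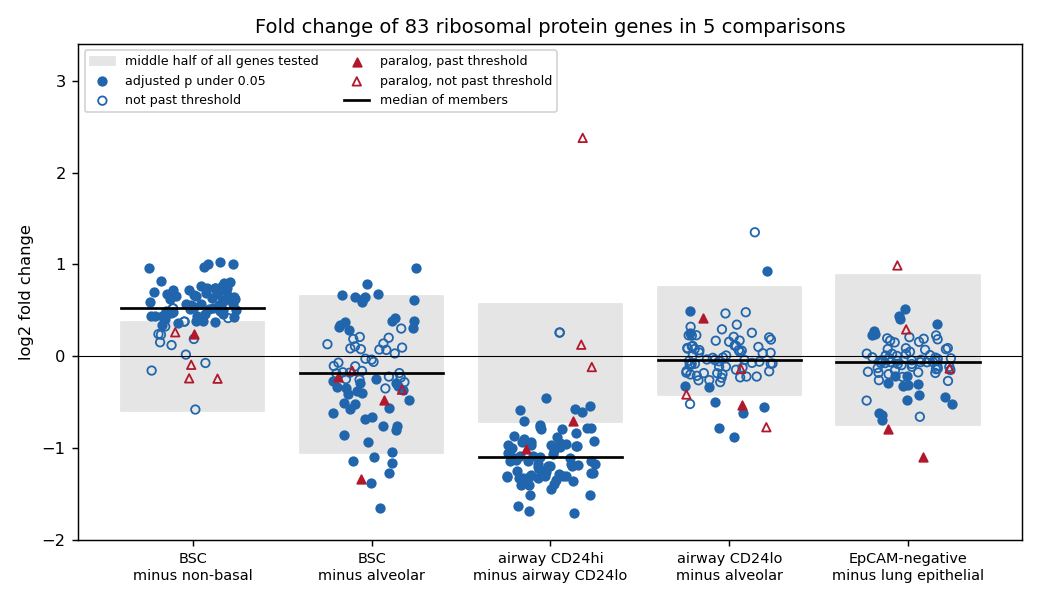
Log2 fold change (vertical axis) of each tested member in the 5 comparisons. Circles are usual members and triangles paralogs, filled where the adjusted p is under 0.05; black lines are member medians, and grey bands span the quartiles of all genes tested. The airway CD24hi minus CD24lo median lies at -1.10 and the BSC minus non-basal median at 0.52.

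In trachea, 64 of 83 members were higher in BSCs than in the non-basal cells of the same mice and 0 were lower, against 21.9% higher and 26.2% lower among all genes tested. The median log2 fold change was 0.52 for the members and -0.02 for all genes. Of the usual small-subunit members 28 of 31 were higher, and of the usual large-subunit members 35 of 47, with medians of 0.64 and 0.52. In 73 members BSC libraries lay wholly above the non-basal libraries, as did 31.0% of all genes tested.

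Rps12 showed the largest difference among the named members. It stood at 14.0, 17.5 and 20.9 RPKM in BSCs and 7.76, 8.07 and 9.87 RPKM in non-basal cells, with no overlap and a log2 fold change of 1.02 ± 0.16 (SE; adjusted p = 4.74e-05). Rpl12, part of the base of the stalk, was at 16.0, 19.0 and 18.4 RPKM against 8.38, 8.92 and 9.24 RPKM (log2 fold change 1.00, adjusted p = 2.9e-06).

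Rps4x stood at 133, 126 and 130.3 RPKM in BSCs and 65.6, 61.0 and 67.6 RPKM in non-basal cells, a log2 fold change of 1.00 ± 0.11 (SE; adjusted p = 1e-06). Rps19 was at 173, 167 and 167 RPKM against 87.5, 81.8 and 90.8 RPKM (log2 fold change 0.96, adjusted p = 7.74e-06). The 4 genes named here were thus about as far apart between the tracheal populations, each with every BSC library above every non-basal library.

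The stalk proteins rose as well, Rplp0 by a log2 fold change of 0.82 (adjusted p = 4.97e-06) and Rplp1 by 0.51 (adjusted p = 0.00234). The 19 members that did not pass included 4 of the 5 tested paralogs, Rpl41, and Rpl10, Rpl11 and Rpl36. Rpl41 was at 676, 724 and 670.2 RPKM in BSCs and 753, 709 and 719 RPKM in non-basal cells. In the fit scaled by summed member counts 5 members were higher and 13 lower in BSCs. Of all genes 6.77% were higher and 56.6% lower, shares that this scaling shifts by construction and that are no background. Rpl41 was among the lower members at -0.66 (adjusted p = 0.000299).

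The non-basal libraries held more of the leukocyte markers (sums between 6391 and 9045 RPKM, almost wholly Lyz2) than BSC libraries (between 293 and 596 RPKM), and more of the club markers (82836 to 92016 RPKM against 9592 to 11600 RPKM). Lyz2 was highest in alveolar cells (36524 to 44255 RPKM), so it does not mark leukocytes alone. Ptprc lay between 0.999 and 1.30 RPKM in BSCs and between 1.19 and 2.46 RPKM in non-basal cells, which overlap. Cd79a and Cd3e stayed at or under 0.973 RPKM in both. In BSCs 2 of the 4 endothelial markers, Cdh5 and Cldn5, were at 0. The part of these marker differences in the result was not tested.

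BSCs and alveolar cells gave a mixed picture. Of 83 members 17 were higher and 34 lower in BSCs, against 30.5% higher and 35.6% lower among all genes, and the median log2 fold change was -0.19 for members and -0.09 for all genes. Both subunits were mixed: 10 of 47 usual large-subunit members were higher and 16 lower, and 7 of 31 small-subunit members higher and 15 lower. This comparison shares its BSC libraries with the one above and its alveolar libraries with the next ones.

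Rplp0, the anchor of the stalk, led the higher side among the more abundant members. It was at 599, 625 and 608 RPKM in BSCs and 384, 365 and 396 RPKM in alveolar cells, with no overlap and a log2 fold change of 0.68 ± 0.11 (SE; adjusted p = 2.13e-05). Rpl37 (0.65, adjusted p = 1.07e-05), Rpsa, also known as a laminin receptor (0.65, adjusted p = 4.45e-05), and Rps26 (0.62, adjusted p = 0.0017) followed. Rpl37 has a protein-coding copy outside the naming rule, Rpl37rt, which held 54386 reads over all libraries beside 14718 on Rpl37, and its mean was 309 RPKM in BSCs and 284 RPKM in alveolar cells. Reads from this pair may be split between the copies, so the value of Rpl37 alone is uncertain.

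Rps12 led the lower side, at 14.0, 17.5 and 20.9 RPKM in BSCs against 56.5, 51.3 and 57.3 RPKM in alveolar cells. Its log2 fold change was -1.66 ± 0.16 (SE; adjusted p = 4.34e-08). Rps16 (-1.38, adjusted p = 2.31e-05), the paralog Rpl36al (-1.34, adjusted p = 2.79e-08) and Rpl36 (-1.27, adjusted p = 2.7e-06) were lower too. Rps12 was thus higher in BSCs than in non-basal cells and lower than in alveolar cells, where its level was the highest of the 6 populations.

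The direction of the median in this comparison depended on the treatment of gene length. Members are short: the tested ones have a median length of 684 bases against 2623 for all tested genes, and 72 of 83 fall in the quintile of the shortest genes (up to 1381 bases). In that quintile the median log2 fold change of BSCs against alveolar cells was -0.47 for the other 3530 genes and -0.24 for the 72 members, and in the quintile of the longest genes it was 0.25. With each library's trend on length removed, using a trend fitted without the members, 50 members were higher and 5 lower in BSCs (35.9% and 28.9% of all genes), with a median of 0.50 (0.09 for all genes). Rps12 (-0.82), Rps16 (-0.61), Rpl36al (-0.50) and Rpl36 (-0.35) had negative values in that fit too. With library size in place of TMM, 36 members (43.4%) were higher and 11 (13.3%) lower, beside 44.0% and 24.2% of all genes, with a median of 0.22 for members and 0.29 for all genes. The share of members higher was thus near that of all genes.

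The other comparisons could be read against the same trend. Between BSCs and non-basal cells the short genes outside the set had a median of -0.19, opposite in sign to the members' 0.52, and 77 members were higher and 0 lower with the trend removed (32.1% and 19.7% of all genes). Between airway CD24hi and CD24lo cells the short genes had a median of 0.00 and the count lower was again 78, with 0 higher, with the trend removed (26.1% and 27.7% of all genes). Across the 83 members, length and log2 fold change had Spearman correlations of 0.34 for BSCs against non-basal cells, 0.37 for BSCs against alveolar cells and -0.07 between the airway gates, given as a description.

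**Figure D4:**
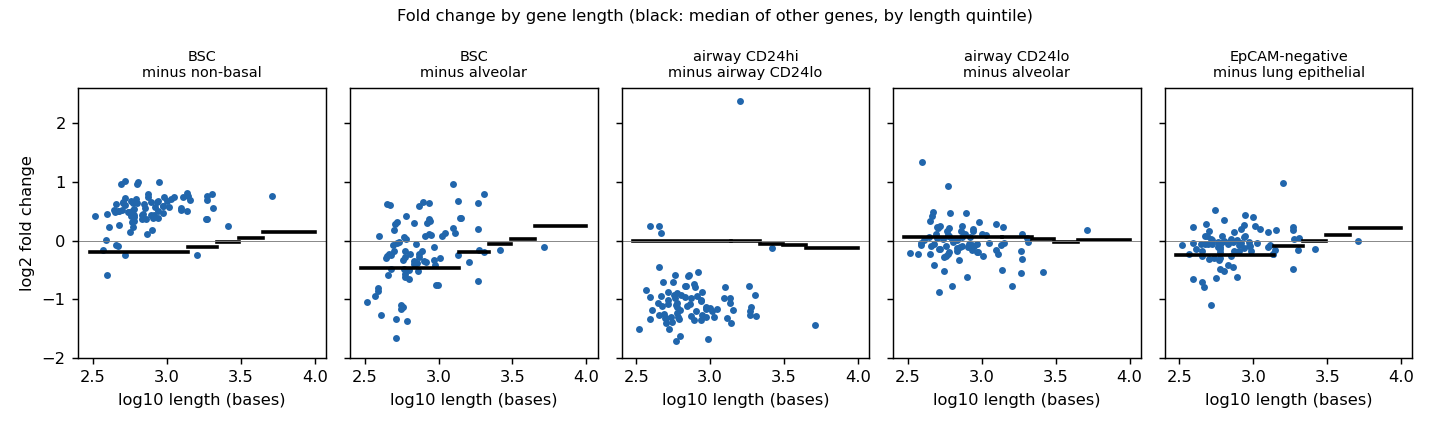
Log2 fold change (vertical axis) against log10 of gene length in bases, for the tested members (points) and as medians of all other genes in quintiles of length (black lines, with the outer quintiles drawn in part), in the 5 comparisons. Most members fall in the quintile of the shortest genes, where other genes lie at -0.47 between BSCs and alveolar cells and at 0.00 between the airway gates.

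Among the 5 comparisons run, the fewest members differed between airway CD24lo and alveolar cells. Of 83 members 4 were higher and 8 lower in airway CD24lo cells, against 24.0% higher and 24.2% lower among all genes, with a median log2 fold change of -0.04 for the members and 0.03 for all genes. Rplp1 was higher, at 1212, 1346 and 1402 RPKM against 935, 918 and 958 RPKM (log2 fold change 0.49, adjusted p = 0.00283). Rps27l was higher by 0.42 (adjusted p = 0.00182).

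Rps12 was lower in airway CD24lo cells, at 30.6, 32.8 and 26.0 RPKM against 56.5, 51.3 and 57.3 RPKM (log2 fold change -0.88, adjusted p = 0.000183). Rps19 (-0.78, adjusted p = 7.42e-05), Rpl10 (-0.62, adjusted p = 0.000229) and Rpl21 (-0.56, adjusted p = 0.0011) were lower as well. The other members stayed within the test's threshold, which does not show that they were equal. With the length trend removed 2 members were higher and 34 lower (17.7% and 37.0% of all genes), with a median of -0.27, while all genes had a median of -0.22 in that fit. With upper-quartile scaling 11 were higher and 6 lower, beside 5006 and 3542 of all 17989 genes. Scaling without TMM factors placed 7 members above and 8 below (24.9% and 22.4% of all genes).

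EpCAM-negative cells, whose 4 fibroblast markers summed to between 3885 and 4156 RPKM, were compared with the mean of the 3 epithelial populations of the same lungs. Endothelial markers summed to between 128 and 222 RPKM in EpCAM-negative cells. That range overlapped with those of airway CD24lo cells (112 to 257 RPKM) and airway CD24hi cells (52.7 to 198 RPKM). Of 83 members 7 were higher and 15 lower, against 35.5% higher and 33.4% lower among all genes, with a median log2 fold change of -0.07 for members and -0.01 for all genes. The epithelial side includes the low airway CD24hi and the high alveolar cells. Of the 83 members 0 lay wholly above and 3 wholly below all epithelial libraries. Among all 17989 genes tested 4010 lay wholly above and 3015 wholly below.

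The lowest members were Rpl36al, Rps27l and Rpl41. Rpl36al was at 48.8, 47.7 and 47.1 RPKM in EpCAM-negative cells, below all 9 epithelial libraries (55.8 to 153 RPKM), with a log2 fold change of -1.10 ± 0.11 (SE; adjusted p = 6.13e-08). Rpl41 was at 488, 489 and 481 RPKM against 568 to 1103 RPKM (-0.70, adjusted p = 6.4e-05). With the length trend removed 36 members were higher and 6 lower (32.9% and 36.4% of all genes), with a median of 0.26 (-0.07 for all genes). With library size in place of TMM 11 were higher and 11 lower (37.5% and 30.9% of all genes). RLE factors, the size factors of DESeq2, gave 10 higher and 13 lower members, for which no share of all genes is given here.

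The paralogs departed from the usual members in several populations. Rps27l, a p53-inducible copy of Rps27, was at 115, 133 and 125 RPKM in airway CD24hi cells and 109, 102 and 131 RPKM in airway CD24lo cells. In the other populations it was at 85.5 ± 1.33 RPKM (SD, n = 3; alveolar), 77.9 ± 4.45 (SD, n = 3; non-basal), 73.0 ± 5.65 (SD, n = 3; BSC) and 61.6 ± 3.10 (SD, n = 3; EpCAM-negative). The airway libraries thus overlapped with each other and lay above all others, and non-basal and BSC libraries overlapped.

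Rps27 itself followed the usual members, at 24.5, 15.3 and 14.1 RPKM in airway CD24hi cells against 31.5, 32.6 and 42.6 RPKM in airway CD24lo cells (log2 fold change -0.98, adjusted p = 0.000122). Rps27 shares 40.1% of its 100-base stretches with other genes and Rps27l 0%, so their counted levels cannot be set against each other. A further protein-coding copy outside the naming rule, Rps27rt, held 29002 reads beside 4003 on Rps27, and was also lower in airway CD24hi than in airway CD24lo cells (log2 fold change -1.48, adjusted p = 8.2e-07). Between BSCs and non-basal cells Rps27 was higher by 0.43 (adjusted p = 0.0426), a call that was lost without BSC replicate 3 (0.31) and without non-basal replicate 1 (0.44), 2 (0.40) or 3 (0.44).

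Rpl22l1 was at 21.0, 45.2 and 47.8 RPKM in airway CD24hi cells, with replicate 1 far below its fellows, and at 59.4, 67.1 and 58.9 RPKM in airway CD24lo cells. The log2 fold change was -0.70 (adjusted p = 0.00591) and -0.41 without airway CD24hi replicate 1. Rpl22 stood at 56.9, 45.0 and 42.9 RPKM against 96.9, 118 and 139.6 RPKM (log2 fold change -1.29, adjusted p = 4.83e-08). Replicate 1 was the highest of its population for Rpl22 and the lowest for Rpl22l1.

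Rpl36al, an autosomal copy of the X-linked Rpl36a, was lowest in EpCAM-negative cells and at 138 ± 11.9 RPKM (SD, n = 3) in alveolar, 125 ± 25.7 RPKM (SD, n = 3) in airway CD24lo and 64.8 ± 6.89 RPKM (SD, n = 3) in non-basal cells. Airway CD24hi cells had 62.0 ± 6.02 RPKM (SD, n = 3) and BSCs 54.7 ± 1.95 RPKM (SD, n = 3). Its BSC libraries lay below its non-basal libraries, in the reverse order to Rpl36a, with a log2 fold change of -0.25 that did not pass (adjusted p = 0.106). Rpl7l1, which acts in the assembly of the large subunit, varied little, between 16.0 and 27.5 RPKM over the 18 libraries. Rpl3l, known from skeletal muscle and heart, stayed at or under 0.197 RPKM.

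**Figure D5:**
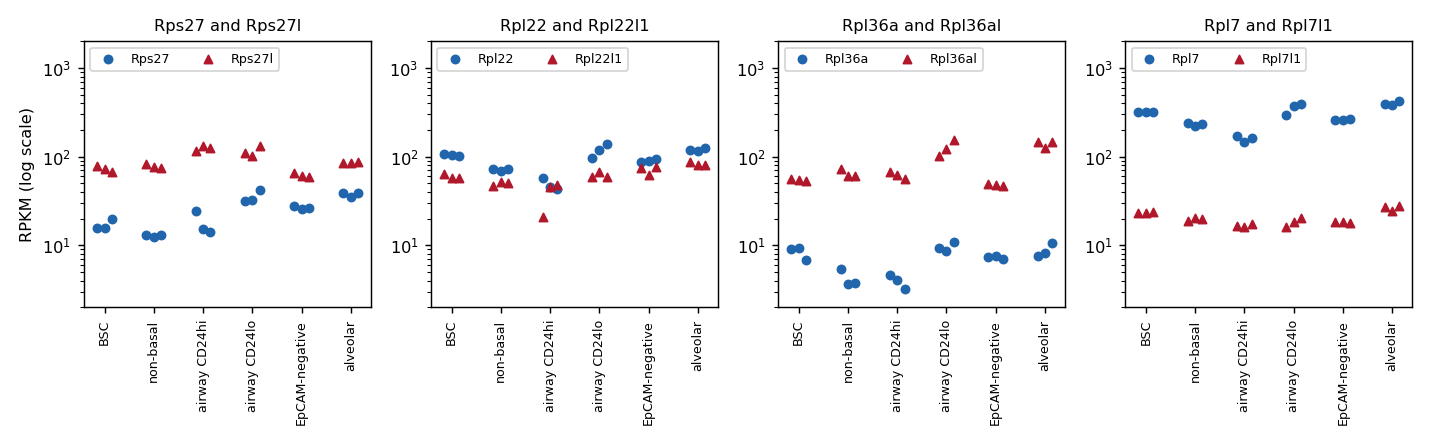
RPKM (vertical axis, log scale) of 4 paralogs (triangles) and the members they resemble (circles) in each library of the 6 populations. Rps27l is highest in both airway populations, and Rps27 is lower in airway CD24hi than in airway CD24lo cells.

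The 5 members with the smallest p by the F test in the fit scaled by summed member counts were Rps19 (adjusted p = 6.33e-10), Rps27l (1.00e-09), Rpl36al (2.52e-09), Rps16 (3.88e-09) and Rps12 (5.53e-09), all by edgeR. A small p also depends on read depth and spread, so this is no ranking by distance from the common level. Rps16 stood at 17.0, 18.6 and 16.2 RPKM in BSC libraries and 9.80, 11.1 and 10.9 RPKM in non-basal libraries, below every lung library (19.3 to 88.0 RPKM). Rps16 was thus low in both tracheal populations, whose organ and animals cannot be told apart, while Rps12 in BSCs overlapped with airway CD24hi cells.

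The genes that surround the ribosome were read from fixed lists. Among ribosome genes outside the naming rule, Rack1, a scaffold on the small subunit, rose in BSCs against non-basal cells by 0.68 (adjusted p = 1.62e-05) and was lower in airway CD24hi than in airway CD24lo cells (log2 fold change -1.22, adjusted p = 1.19e-08). Fau, which carries a small-subunit protein, was lower in BSCs than in alveolar cells (log2 fold change -1.35, adjusted p = 2.41e-06).

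Translation factors and other TOP mRNAs were read in the same fits. Of 20, 17 were lower and 0 higher in airway CD24hi than in CD24lo cells (27.2% and 27.8% of all genes; median -0.82), led by the elongation factor Eef1b2 (-1.51, adjusted p = 4.9e-09). In BSCs 13 were higher and 0 lower than in non-basal cells (21.9% and 26.2% of all genes; median 0.40), led by Pabpc1, the poly(A)-binding protein (0.80, adjusted p = 2.57e-06). Against alveolar cells 3 were higher and 4 lower in BSCs under TMM, both smaller shares than the 30.5% and 35.6% of all genes. Pabpc1 was at 1.48 (adjusted p = 4.07e-10) and Tpt1 at -1.21 (adjusted p = 8.87e-06). The share higher depended on the fit. Removal of the length trend gave 10 (50%) higher and 3 (15%) lower, beside 35.9% and 28.9% of all genes. Without TMM factors the counts became 15 (75%) and 2 (10%), beside 44.0% and 24.2%. Scaling by summed member counts left them at 3 and 4.

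Factors that assemble ribosomes, mostly in the nucleolus, were largely higher in BSCs than in alveolar cells. Of 36, 31 were higher and 3 lower in BSCs (30.5% and 35.6% of all genes; median 0.81), with Rrp12, an export factor, highest at 1.97 (adjusted p = 5.74e-10) and Polr1c, an RNA polymerase subunit, lowest at -1.38 (adjusted p = 3.54e-10). In BSCs against non-basal cells 20 were higher and 3 lower (21.9% and 26.2% of all genes; median 0.31). In airway CD24hi against CD24lo cells 4 were higher and 19 lower (27.8% and 27.2% of all genes; median -0.33), with Gnl3, nucleostemin, lowest at -1.21 (adjusted p = 3.74e-07) and Rrp12 highest at 0.88 (adjusted p = 1.7e-05).

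Among 16 regulators of translation, Myc, a transcription factor that drives ribosome production, was higher in BSCs than in non-basal cells by 3.20 (adjusted p = 8.7e-08) and than in alveolar cells by 2.86 (adjusted p = 1.41e-07). Mycn was lower in BSCs than in alveolar cells (-4.79, adjusted p = 6.48e-06). In airway CD24hi against CD24lo cells 2 were higher, Mtor the highest at 0.65 (adjusted p = 1.18e-06), and 11 lower (27.8% and 27.2% of all genes), the eIF2 kinase Eif2ak4 the lowest at -1.04 (adjusted p = 6.87e-08).

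The mitochondrial ribosome is a separate particle with its own proteins. Of its 77 tested genes 20 (26.0%) were higher and 10 (13.0%) lower in airway CD24hi than in CD24lo cells (median 0.09), beside 27.8% and 27.2% of all genes, so the share higher was at the background, with Mrps17 highest at 1.56 (adjusted p = 3.43e-08). In BSCs against non-basal cells 2 were higher and 23 (29.9%) lower (median -0.15), beside 21.9% and 26.2% of all genes, so the share lower was near the background. Removal of the length trend gave 29 higher and 4 lower there (32.1% and 19.7% of all genes), with a median of 0.23. Library size alone gave 30 and 2 (43.3% and 16.6% of all genes), so the direction depended on the fit. In EpCAM-negative against epithelial cells 4 were higher and 50 lower (35.5% and 33.4% of all genes; median -0.39), with Mrpl39 lowest at -1.61 (adjusted p = 2.19e-11). With the length trend removed these counts were 11 and 39 (32.9% and 36.4% of all genes; median -0.29).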

How the data were processed

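RNA was sequenced from 18 libraries. Rsubread was used by the authors for alignment to mm10 and featureCounts for assignment to Entrez genes, and the deposited values are raw counts with gene lengths; how reads that match several genes were treated is not given in the sources used here. Symbols came from NCBI's GRCm38.p6 table (25275 of 27179 identifiers matched). Members and gene lists were chosen with earlier results of these data known.

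A gene was kept where its CPM passed 0.2 in 3 or more libraries. TMM factors were used for scaling, and the quasi-likelihood test of edgeR 4.0.16 (R 4.3.3) was run in 1 fit of all libraries, with p-values adjusted by Benjamini-Hochberg over all 17989 genes. RPKM used the deposited lengths. Shared stretches came from GENCODE M21 transcripts and promoters from RefSeq. The fit was tested on simulated data.

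Genes named are the paralogs and their nearest members, a fixed group with known roles, and the 5 highest and 5 lowest by mean RPKM. Each comparison adds up to 4 highest and 4 lowest log2 fold changes among members past 0.05. Those have a mean of 10 CPM or more and groups that do not overlap. Also named are the 5 with the smallest p in the fit scaled by summed member counts, and the extremes of each other list. The 19 and 5 members that did not pass were named after their values were seen, as were Rpl32l, Rpl35 and Rpl37rt.

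Same-numbered libraries of an organ come from 1 mouse by the labels. Their deviations from group means correlated at 0.476, 0.203 and 0.333 for BSCs and non-basal cells. The airway gates gave 0.358, 0.081 and 0.28. Values were 0.0459, -0.0923 and 0.0959 for airway CD24lo and alveolar cells, and -0.0577, 0.129 and 0.0202 for EpCAM-negative and alveolar cells. The pairing of those lung populations thus rests on the labels. The lowest chi-square per degree of freedom between replicates was 3.50, so no replicate pair was alike within counting noise. Alternatives were RLE, upper-quartile, library size alone, TMM without the members, summed member counts, other filters, limma voom 3.58.1, DESeq2 1.42.0, only the libraries compared, a replicate block, thinning of tracheal libraries, pseudogene reads, length corrections (that without the members chosen after seeing the data) and leaving out each library.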

Additional observations from a re-analysis of the deposited data

Results flagged for a closer look

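Reads were also counted on 33 rows named as pseudogenes of members, which no comparison above used. They held 47929 reads over the 18 libraries and took between 1.48% and 1.90% of the reads on members and pseudogenes together. Rpl34-ps1 held 10418 reads beside 21428 on Rpl34, and Rps27a-ps3 held 3438 beside 1688 on Rps27a, the one named member whose direction between BSCs and alveolar cells turned when these reads were added.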

How the results depend on the processing

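The median lower level of the members in airway CD24hi than in airway CD24lo cells, and the higher level in BSCs than in non-basal cells, kept their direction under every alternative run other than scaling by summed member counts, which removes the common shift by construction and so bears on neither. The mixed or small differences of the other comparisons depended on scaling and on gene length. With library size alone, the median of all genes moved from -0.02 to 0.31 between BSCs and non-basal cells, from -0.09 to 0.29 between BSCs and alveolar cells and from -0.06 to 0.21 between the airway gates. The member median was then 0.87 for BSCs against non-basal cells, 0.22 for BSCs against alveolar cells (36 higher, 11 lower) and -0.82 for the airway gates (2 higher), with 7 members higher in airway CD24lo than in alveolar cells and 11 higher in EpCAM-negative cells. Upper-quartile scaling gave a median of -1.30 for the airway gates. For airway CD24lo against alveolar cells it gave 0.060, with 11 higher beside 5006 of all 17989 genes. Scaling by summed member counts gave 5 higher, 13 lower and a median of -0.063 for BSCs against non-basal cells, 10 higher, 18 lower and -0.057 for the airway gates, 10 higher for airway CD24lo against alveolar cells and 12 higher for EpCAM-negative cells. The length correction gave a median of 0.90 for BSCs against non-basal cells, 0.49 against alveolar cells (48 higher, 6 lower), -0.27 for airway CD24lo against alveolar cells (2 higher, 34 lower) and 0.26 for EpCAM-negative cells (36 higher, 6 lower). With the trend fitted without the members these were 0.92, 0.50 (50 higher, 5 lower), -0.27 (2 higher, 34 lower) and 0.26 (36 higher, 6 lower). DESeq2 called 7 members higher in airway CD24lo than in alveolar cells and 11 higher in EpCAM-negative cells. Fitting only the libraries compared called 1 member lower in BSCs than in non-basal cells, and the replicate block called 72 higher and 1 lower there. The paired fit moved no other count by over 1.5 times. Leaving out each library in turn gave 0 to 1 higher, 75 to 78 lower and a median of -1.26 to -1.01 for the airway gates, 2 to 10 higher and a median of -0.08 to 0.03 for airway CD24lo against alveolar cells (highest without airway CD24lo replicate 1, lowest without replicate 3) and 4 to 15 higher for EpCAM-negative cells (highest without airway CD24hi replicate 1, lowest without EpCAM-negative replicate 3). Without the 50 highest other genes the mean share of the members was 1.56% in BSC, 1.06% in non-basal, 0.660% in airway CD24hi, 1.61% in airway CD24lo, 0.997% in EpCAM-negative and 1.48% in alveolar cells. Single genes that turned with scaling by summed member counts were, for airway CD24hi minus airway CD24lo Rpl10 0.29, Rpl11 0.15, Rpl22l1 0.42, Rpl3 0.080, Rpl36al 0.061, Rpl5 0.17, Rplp1 0.10, Rps27 0.057, Rps27a 0.10 and Rps4x 0.23, and for BSC minus non-basal Rpl22 -0.026, Rpl3 -0.081, Rpl7 -0.12, Rpl7l1 -0.35, Rplp1 -0.081, Rplp2 -0.072, Rps27 -0.16 and Rps27a -0.15. Single genes that turned with library size alone were, for BSC minus alveolar Rpl10 0.059, Rpl3 0.15, Rpl7 0.073, Rplp2 0.11, Rps27a 0.034 and Rps27l 0.18. Single genes that turned with the length correction were, for BSC minus alveolar Rpl10 0.31, Rpl11 0.14, Rpl22l1 0.37, Rpl3 0.17, Rpl7 0.28, Rplp2 0.58, Rps19 0.077, Rps27a 0.28 and Rps27l 0.63. Single genes that turned with the length correction without the members in the trend were, for BSC minus alveolar Rpl10 0.33, Rpl11 0.15, Rpl22l1 0.39, Rpl3 0.17, Rpl7 0.29, Rplp2 0.60, Rps19 0.093, Rps27a 0.29 and Rps27l 0.65. Single genes that turned with pseudogene reads added were, for BSC minus alveolar Rps27a 0.19. Of the other single-gene values, 97 lost their call under an alternative in the same direction and 1483 kept it. The causes of these changes were not tested, except that the summed scaling subtracts the members' own shift. The depth of lung libraries limits the members with few reads.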
